A study of Bos taurus with 10 samples.

Results

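CD36, FABP4 and LPL are 3 genes of fatty acid uptake, taken here by their Ensembl IDs (ENSBTAG00000017866, ENSBTAG00000037526 and ENSBTAG00000012855) from a liver count table of 27607 gene IDs, of which 15973 had at least 1 count. The table covers 10 libraries from the livers of Holstein dairy cows (Bos taurus), all taken 2 weeks before calving was due. The labels place 5 libraries in an over-conditioned group, meaning animals that carry excess body fat, and 5 in a normal-conditioned group. They state no age, parity, body condition score or treatment, and they leave unsaid whether every library comes from its own animal. What the p-values measure is the spread between these libraries, which may be technical. Sequencing read only the 3' ends of polyadenylated transcripts, so long and short transcripts give about 1 read per molecule sampled. Levels are given as CPM, the count of a gene scaled to a library total of 1000000.

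In late pregnancy a dairy cow begins to mobilise fat from adipose tissue, and the liver takes up part of the fatty acids released. LPL encodes lipoprotein lipase, an enzyme made mainly in muscle, adipose tissue and macrophages, which acts on the surface of capillaries and frees fatty acids from the triglycerides of circulating lipoproteins. CD36 encodes a membrane protein that binds long-chain fatty acids and modified lipoproteins and takes part in their entry into the cell. In liver it is found on hepatocytes, endothelial cells and macrophages. FABP4 encodes a small fatty acid binding protein that carries fatty acids inside adipocytes, macrophages and capillary endothelium, while FABP1 is the main form in hepatocytes. In bulk liver RNA, fewer cells of a type and less RNA per cell cannot be told apart.

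Library totals ran from 3892292 to 6737548 counts, and 12310 to 13037 genes had a count in each library. Over-conditioned replicate 2 was the shallowest library and stood apart from the rest, with a mean rank correlation of 0.936 with the other libraries against 0.950 to 0.957 for the remaining 9. Results are therefore also given without it where that changes them. The count table does not pair its IDs with symbols and 0 of the 27607 IDs matched the RefSeq gene table, so no other gene of the pathway and no marker of a cell type could be read. The labelled tissue was for this reason not checked against liver markers, and neither were adipocyte, macrophage or endothelial markers. In the RefSeq table for assembly ARS-UCD2.0, used for names and neighbours only, no gene overlapped CD36, FABP4 or LPL. FABP4 lies there between FABP9 and FABP12, members of its own family. The assignment of reads that match several genes is not given in the sources here, so a share of FABP4 reads from relatives, or the reverse, was not tested.

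The 3 genes stood at separate levels in liver. CD36 had a mean of 35.6 ± 17.6 CPM over the libraries (SD, n = 10), higher than 84.6% of the genes with a count. LPL had 8.75 ± 3.07 CPM and lay above 64.4% of them. FABP4 had 0.528 ± 0.620 CPM and lay above 31.1%. The order held in every library, since the lowest CD36 value, 17.0 CPM, exceeded the highest LPL value, 14.8 CPM, and the lowest LPL value, 5.34 CPM, exceeded the highest FABP4 value, 1.80 CPM. These 3' levels are not divided by transcript length. CD36 rested on 66 to 410 counts per library and LPL on 31 to 86. FABP4 rested on 0 to 7, with 26 counts in all 10 libraries together, so its values carry the widest counting error.

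**Figure D1:**
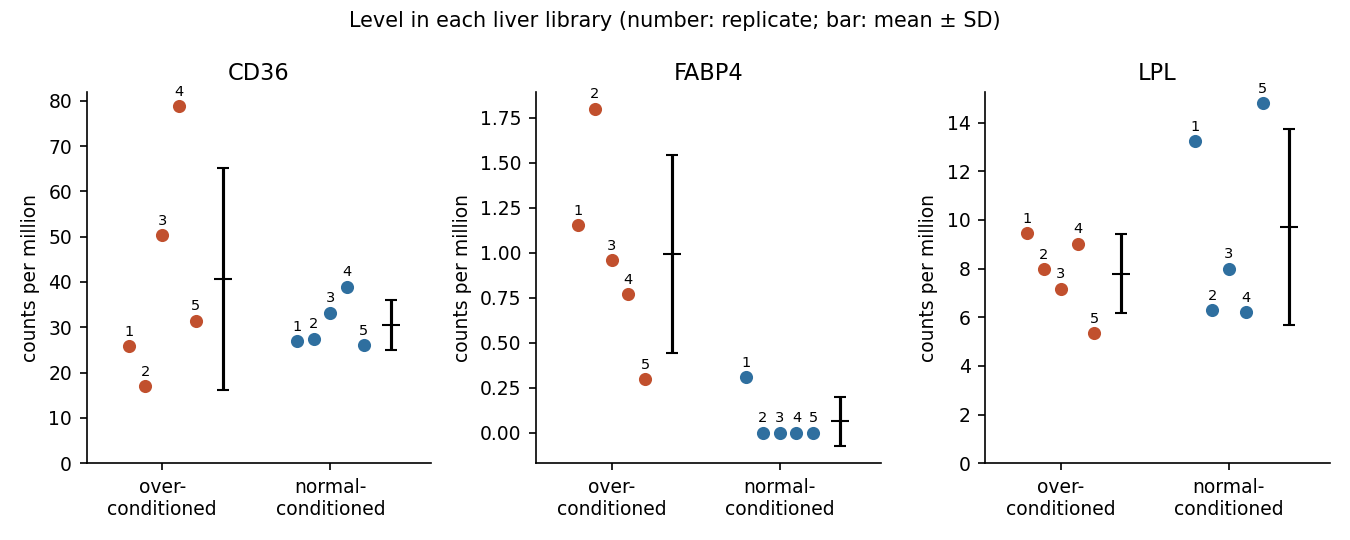
Level of CD36, FABP4 and LPL in CPM (y axes, separate scale for each gene) in every library, by condition (x axis). Points are libraries marked with their replicate number, and black bars are the mean ± SD of 5 libraries. CD36 spreads from 17.0 to 78.8 CPM in the over-conditioned group, FABP4 is at 0 in 4 normal-conditioned libraries, and LPL is highest in normal-conditioned replicates 1 and 5.

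CD36, the fatty acid binding membrane protein, varied most within the over-conditioned group. In over-conditioned replicates 1 to 5 it stood at 25.8, 17.0, 50.4, 78.8 and 31.5 CPM. In normal-conditioned replicates 1 to 5 it stood at 27.0, 27.5, 33.2, 38.9 and 26.1 CPM. Over-conditioned replicates 3 and 4 were above all normal-conditioned libraries, replicates 1 and 2 were below all of them, and replicate 5 lay within their range. The exact (Clopper-Pearson) 95% interval of replicate 4, 71.4 to 86.8 CPM, and that of replicate 3, 44.95 to 56.2 CPM, were apart from each other and from the interval of each normal-conditioned library, of which the highest reached 44.3 CPM. These intervals cover counting error only.

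The group means of CD36 did not differ beyond this spread. The over-conditioned mean was 40.7 ± 24.6 CPM and the normal-conditioned mean 30.5 ± 5.48 CPM (SD, n = 5 each), a difference of 10.1 CPM (exact permutation test over all regroupings into 5 and 5, two-sided, p = 0.476). Of the tested genes 6.22% had a p under 0.05 in this permutation test. The fitted log2 fold, over-conditioned relative to normal-conditioned, was 0.35 (SE 0.30, approximate 95% interval −0.28 to 0.99; edgeR quasi-likelihood test, adjusted p = 0.800 over 9162 genes). In fold terms the interval ran from 0.822 to 1.99, so nearly a doubling of CD36 in over-conditioned livers lies within it. In the same fit 0.0% of the genes had an adjusted p under 0.05, 7.55% (692 genes) had an unadjusted p under 0.05, and 31.9% had a p as small as that of CD36. DESeq2 called 23 of these genes, or 0.251%, and CD36 was not among them (adjusted p = 0.823). The size of the difference rested on few libraries, while its direction was the same without any single one. Without over-conditioned replicate 4 the log2 fold was 0.04 and the difference in means 0.610 CPM, and without over-conditioned replicate 2 they were 0.54 (edgeR adjusted p = 0.700, with the unadjusted p just under 0.05) and 16.1 CPM.

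The spread of CD36 itself was set against that of other genes and between the conditions, a comparison chosen after its values were seen. Its coefficient of variation over the 10 libraries was 49.5%, where the median of the tested genes was 24.7%. Among the 2546 tested genes whose mean level lay within 2-fold of that of CD36, the median was 19.4%, and 97.7% of them varied less than CD36. Without over-conditioned replicate 4 the coefficient of variation was 30.8%.

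By condition, the SD of log2(CPM + 0.5) of CD36 was 0.85 for the over-conditioned group and 0.24 for the normal-conditioned group. The difference in mean absolute deviation from the group median was 0.45 on that scale and did not pass (exact permutation test, two-sided, p = 0.111). It ran from 0.28 without over-conditioned replicate 4 (exact permutation p = 0.191) to 0.61 without over-conditioned replicate 5 (exact permutation p = 0.0317). It had a p under 0.05 in 1 of the 10 such fits, that without replicate 5. Replicate 5 is the median of its group, so its own deviation is nil and leaving it out raises the mean deviation in any data. The p without it therefore adds no support to a difference. Of all tested genes 0.491% had a p under 0.05 in this test of spread, a small share for a threshold of 0.05. The test thus seldom passes here, and a p above the threshold does not show equal spread. Over-conditioned libraries were the wider group for 62.9% of the genes, and replicate 2 stands apart among them. Without that replicate the CD36 value was 0.39 (exact permutation p = 0.0556).

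**Figure D2:**
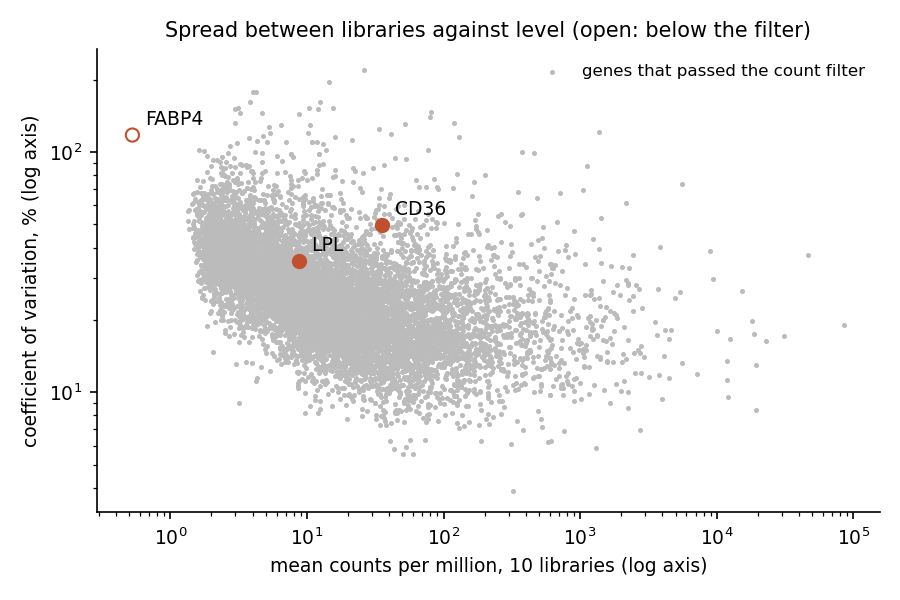
Coefficient of variation over the 10 libraries in percent (y axis, log) against mean CPM (x axis, log) for the 9162 genes that passed the count filter (grey points), with CD36 and LPL as filled circles and FABP4, which did not pass, as an open circle. CD36, at 49.5%, lies above 97.7% of the genes within 2-fold of its level, with some genes well above it. LPL, at 35.1%, lies inside the cloud.

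FABP4, the fatty acid carrier of adipocytes, macrophages and capillary endothelium, was near the limit of detection and was found mostly in over-conditioned libraries. Over-conditioned replicates 1 to 5 held 5, 7, 6, 4 and 2 counts, which is 1.15, 1.80, 0.956, 0.769 and 0.297 CPM. Normal-conditioned replicate 1 held 2 counts, or 0.308 CPM. Normal-conditioned replicates 2 to 5 held 0 counts each, and a count of 0 allows up to 3 counts, or 0.485 to 0.616 CPM at the depth of those libraries. FABP4 thus had a count in 5 of 5 over-conditioned and 1 of 5 normal-conditioned libraries. The groups overlapped only in that over-conditioned replicate 5 lay just below normal-conditioned replicate 1.

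The libraries at 0 were not the shallowest ones. The 4 libraries at 0 had totals of 4874244 to 6189459, while the 7 counts of over-conditioned replicate 2 came from the shallowest library, with a total of 3892292. A part of depth in the counts of 0 was not tested. Counting error within each library was wide. The exact (Clopper-Pearson) 95% interval was 0.723 to 3.71 CPM for over-conditioned replicate 2 and 0.0373 to 1.11 CPM for normal-conditioned replicate 1. These intervals overlapped. In over-conditioned replicates 1, 3, 4 and 5 the lower bounds were 0.374, 0.351, 0.209 and 0.036 CPM. All of these lie below the 0.485 to 0.616 CPM that a count of 0 allows. Taken singly, these libraries are thus not apart from a count of 0 by counting error. Over the groups, 24 counts of 26450745 stood against 2 counts of 29190895. The ratio of these pooled CPM levels was 13.2, with an exact 95% interval of 3.29 to 116 that covers counting error only.

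FABP4 averaged 0.994 ± 0.550 CPM over the over-conditioned group and 0.0616 ± 0.138 CPM over the normal-conditioned group (SD, n = 5 each). The difference of 0.933 CPM had an unadjusted p of 0.0159 in the exact permutation test (two-sided, 4 of all regroupings as large), 1 of 3 such tests made here. The 3 genes were chosen with earlier results of these data known, and this p makes no allowance for that choice. Among the 3293 genes below the count filter with a total of 10 or more counts, 4.83% had a p under 0.05 in this test and 1.49% had one as small as FABP4. FABP4 did not pass the count filter, since 1 of its 10 libraries reached 1.72 CPM, the level of 10 counts at the median depth. Its fold was taken from the fit of all 15973 genes with a count, where 0.0% of genes had an adjusted p under 0.05 and 6.37% (1018 genes) an unadjusted one. There the log2 fold was 3.38 (SE 0.90, approximate 95% interval 1.52 to 5.25; edgeR quasi-likelihood test, adjusted p = 0.295). The difference therefore did not pass the threshold over all genes. In that fit 54 genes, 0.338%, had a p as small.

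Without single libraries the FABP4 difference kept its direction in all 10 fits, with an exact permutation p from 0.00794 to 0.0238 and an edgeR adjusted p from 0.131 to 0.547. The lowest exact permutation p, 0.00794, left out over-conditioned replicate 5, the only over-conditioned library within the normal-conditioned range. Without that library the groups are apart, and the p is the smallest this test can give. It therefore adds no support to a difference. The pooled ratio was 11.0 without over-conditioned replicate 2, which holds the most counts. Without normal-conditioned replicate 1 all remaining normal-conditioned libraries are at 0. The over-conditioned level was then 6.87 times the floor of 3 counts taken over the group. This value leaves out the counting error of the over-conditioned counts and the spread between libraries, so it is no strict lower bound. The fitted log2 fold without normal-conditioned replicate 1, 5.38, depends on the prior count and is no bound either. Limma-voom on all genes with a count gave a log2 fold of 2.91 (adjusted p = 0.217), and DESeq2 gave 3.71 with no adjusted p.

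FABP4 was also ordered by the number that opens each library name, whose meaning the labels do not give. Libraries numbered 1 to 4 are over-conditioned and held 4 to 7 counts, numbers 5 (normal-conditioned) and 6 (over-conditioned) held 2 counts each, and numbers 7 to 10, all normal-conditioned, held 0. The condition and this number can hardly be told apart, as only libraries 5 and 6 break the order of the conditions, and they had the same count. The names also carry a letter with the digit 7 or 8, and the digit 8 occurs in normal-conditioned replicates 4 and 5 only. Among the 8 libraries with the digit 7 the log2 fold was 2.76 (edgeR adjusted p = 0.551).

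**Figure D3:**
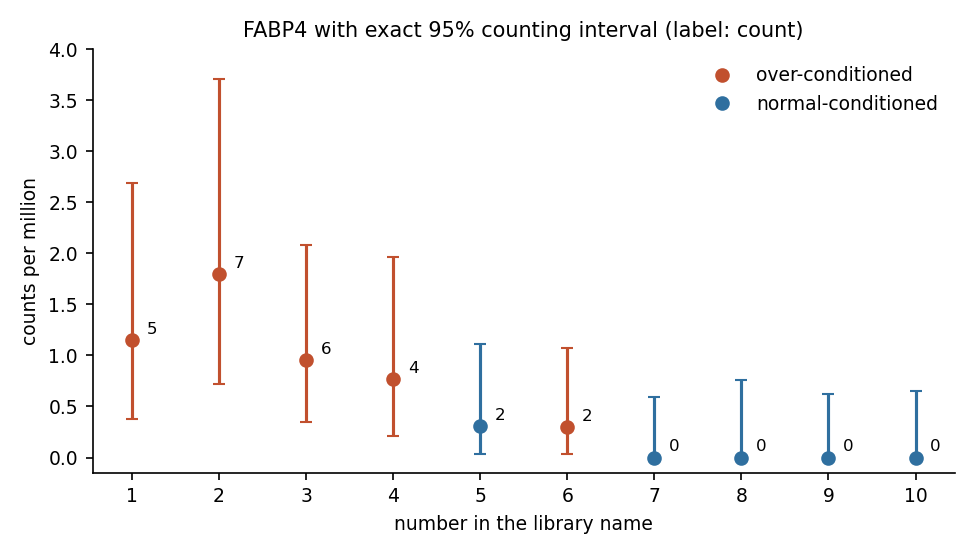
FABP4 level in CPM (y axis) in each library against the number in the library name (x axis), coloured by condition. Bars are exact 95% intervals for counting error and the labels give the count. Levels are highest in libraries 1 to 4, equal at 2 counts in libraries 5 and 6, and 0 in libraries 7 to 10.

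LPL, the lipase that frees fatty acids from lipoprotein triglycerides, was present in every library at a low to middle level. Over-conditioned replicates 1 to 5 stood at 9.44, 7.96, 7.17, 9.03 and 5.34 CPM. Normal-conditioned replicates 1 to 5 stood at 13.3, 6.30, 8.00, 6.21 and 14.8 CPM. Normal-conditioned replicates 1 and 5 were the highest of all 10 libraries, and the other 3 normal-conditioned libraries lay within the over-conditioned range.

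The groups of LPL overlapped and their means did not differ beyond the spread. LPL averaged 7.79 ± 1.63 CPM over the over-conditioned group and 9.71 ± 4.04 CPM over the normal-conditioned group (SD, n = 5 each), a difference of −1.92 CPM (exact permutation test, two-sided, p = 0.373). The log2 fold was −0.38 (SE 0.26, approximate 95% interval −0.93 to 0.17; edgeR quasi-likelihood test, adjusted p = 0.771). The interval runs from 0.525-fold to 1.12-fold, so a fall of LPL in over-conditioned livers to nearly 0.525 of the normal-conditioned level lies within it. In this fit 20.5% of the tested genes had a p as small. Without normal-conditioned replicate 5 the log2 fold was −0.22, and without normal-conditioned replicate 1 it was −0.23, so both of the high libraries carry part of the difference.

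LPL varied more than the median gene of its level, but less far above it than CD36. Its coefficient of variation was 35.1%, where 78.5% of the 3355 tested genes within 2-fold of its level varied less and their median was 26.5%. The SD of log2(CPM + 0.5) was 0.31 for the over-conditioned group and 0.56 for the normal-conditioned group. The difference in mean absolute deviation was −0.22 (exact permutation test, two-sided, p = 0.246). It ran from −0.12 without normal-conditioned replicate 5 (exact permutation p = 0.548) to −0.33 without normal-conditioned replicate 3 (exact permutation p = 0.0397). It had a p under 0.05 in 1 of the 10 such fits, that without normal-conditioned replicate 3. As for CD36, the library left out there is the median of its group, so the mean deviation rises in any data. The p without it adds no support to a difference. The wider group was thus the over-conditioned one for CD36 and the normal-conditioned one for LPL. Neither difference passed over all 10 libraries, in a test that few genes passed.

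**Figure D4:**
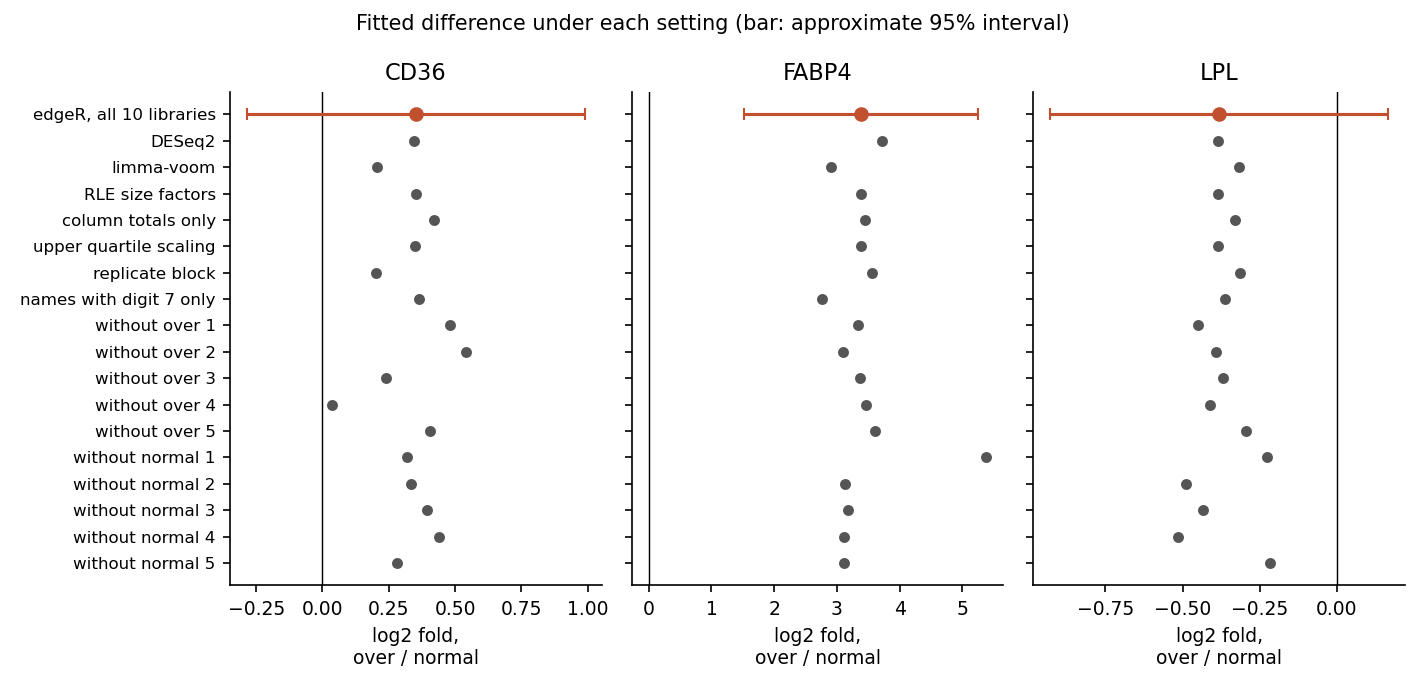
Fitted log2 fold of CD36, FABP4 and LPL, over-conditioned relative to normal-conditioned (x axes, separate scale for each gene), with edgeR on all 10 libraries (top, bar: approximate 95% interval) and under each alternative (rows below). CD36 drops to 0.04 without over-conditioned replicate 4, FABP4 stays between 2.76 and 5.38, and LPL stays below 0.

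The 3 genes showed no detectable relation to each other across the libraries. On log2(CPM + 0.5), Pearson's r was −0.04 for CD36 with FABP4 (permutation p = 0.908, adjusted p = 0.988 over the 3 pairs), and Spearman's rho was −0.26 (permutation p = 0.462, adjusted p = 0.679). For CD36 with LPL, r was −0.16 (permutation p = 0.657, adjusted p = 0.988) and rho was −0.37 (permutation p = 0.294, adjusted p = 0.679). For FABP4 with LPL, r was 0.01 (permutation p = 0.988, adjusted p = 0.988) and rho was 0.15 (permutation p = 0.679, adjusted p = 0.679). The library highest in CD36 was over-conditioned replicate 4, the library highest in FABP4 was over-conditioned replicate 2, which was lowest in CD36, and the library highest in LPL was normal-conditioned replicate 5. Without the 2 libraries farthest from the median of the first gene of each pair, r was 0.20 (exact permutation p = 0.652), −0.50 (exact permutation p = 0.198) and −0.03 (exact permutation p = 0.940) in the same order. Without over-conditioned replicate 2, r for CD36 with FABP4 changed sign to 0.40 (exact permutation p = 0.297). With the group means subtracted, r was −0.43, −0.11 and 0.50, with permutation p from 0.141 to 0.758. Each group alone holds 5 libraries, too few for a correlation.

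Other genes followed single members more closely, which is given as a description because the highest of about 9162 values was taken each time. The measure was Pearson's r of log2 CPM (TMM scaling, prior count 2) over the 10 libraries. For CD36 the nearest gene was ENSBTAG00000046037 with r = 0.93, at 12.9 to 34.2 CPM, and it was the 1 gene with r over 0.9. For FABP4 the nearest was ENSBTAG00000009988 with r = 0.94, at 4.52 to 10.8 CPM, and 5 genes had r over 0.9. The FABP4 profile on this scale is set in part by the prior count, since 4 libraries are at 0. For LPL the nearest was ENSBTAG00000050052 with r = 0.90, at 1.59 to 41.4 CPM, and no gene had r over 0.9. None of these 3 genes passed the threshold between the conditions (edgeR adjusted p = 0.899, 0.529 and 0.459).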

How the data were processed

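The deposited table holds unnormalised counts, all whole, with 1 row per Ensembl gene ID. Per the labels' protocols, RNA from 20 mg of liver was made into QuantSeq forward libraries and sequenced as single reads of 75 bases. Per the submitters' processing notes, RSEM 1.3.1, STAR 2.6.0c and cutadapt 1.18 and the builds ARS-UCD1.2 and bosTau9 were used, in roles that are not given. CPM (counts per 1000000) used the column total. All genes were fitted with edgeR 4.0.16 (filterByExpr, minimum count 10, minimum total 15; TMM; quasi-likelihood F-test; Benjamini-Hochberg, threshold 0.05). FABP4 fell below this filter and was taken from the fit without one. Standard errors come from the fold and the F statistic, so the intervals are approximate. Alternatives used DESeq2 1.42.0 and limma 3.58.1 in R 4.3.3. Permutation tests used NumPy 2.4.6 under Python 3.11.15, exact below 10 values and over all regroupings, with 100000 resamples for correlations. The edgeR script was tested on simulated data. Gene symbols for the 3 IDs came with the choice of genes. The members and gene lists were chosen with earlier results of these data known. The rule for named genes took the 3 members and, as IDs lack symbols, 1 nearest ID per member; the 13 pathway and marker lists could not be used. Deviations of libraries with the same replicate number correlated at −0.218 to −0.00016, so the numbers were not taken as pairs.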

Additional observations from a re-analysis of the deposited data

Results flagged for a closer look

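Among the 6 groups of 5 values examined (3 genes in each condition), 1 held a library far from the others. FABP4 in normal-conditioned replicate 1 stood at 0.308 CPM, on 2 counts, where the other 4 normal-conditioned libraries were at 0. Its distance to the nearest of them equals the whole range of the group. The usual rate of about 1 in 20 groups marked by chance does not apply here, because with 4 values at exactly 0 any count in the remaining library is marked. A step from 0 to 2 counts lies within counting error, since its lower 95% bound of 0.0373 CPM is below what a count of 0 allows in the other libraries. By the same rule, over-conditioned replicates 1, 3, 4 and 5, taken singly, also lie within counting error of a count of 0.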

How the results depend on the processing

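The log2 folds of CD36 (19 alternatives), FABP4 (17) and LPL (19) kept their direction and stayed short of the adjusted threshold in every alternative run, with adjusted p from 0.698 to 0.976, 0.131 to 0.551 and 0.576 to 0.917. Where DESeq2 gave no adjusted p, for FABP4 and LPL, none is counted. The difference in CPM kept its side of the threshold in all 12 alternatives for each gene. The count of genes called, 0 with edgeR, was 23 with DESeq2 and ranged from 0 to 1 without single libraries, the 1 without normal-conditioned replicate 1. The cause was not tested. Without single libraries the log2 fold ran from 0.04 to 0.54 for CD36, from 3.10 to 5.38 for FABP4 and from −0.52 to −0.22 for LPL. The difference in CPM ran from 0.610 to 16.1, from 0.732 to 1.11 and from −2.80 to −0.649. The difference in spread, whose alternatives were chosen after seeing the data, ran from 0.28 to 0.61 for CD36, 0.12 to 0.38 for FABP4 and −0.33 to −0.12 for LPL. The 0.61 and the −0.33 each leave out the median library of the wider group, which raises that group's mean deviation in any data.

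The correlations near 0 changed sign easily, with no p under 0.05. CD36 with FABP4 ran from −0.31 to 0.40 without single libraries, and was 0.20 without the 2 libraries farthest from the median. FABP4 with LPL ran from −0.12 to 0.30, and was −0.077 with TMM-scaled CPM, −0.013 with a pseudocount of 2 and −0.035 without the 2 farthest libraries. CD36 with LPL ran from −0.34 to −0.06. With the replicate block the log2 folds were 0.20 (adjusted p = 0.914), 3.56 (adjusted p = 0.363) and −0.31 (adjusted p = 0.912), and 0 genes were called with the count filter. Same-numbered libraries showed no pairing: 0 of 10 were closest to their own number. FABP4 has no value under the filters on low counts, which remove it. Tests of the gene lists were not run. Depth limits FABP4 most, at 0 to 7 counts per library: in the 4 libraries at 0, levels of up to 0.485 to 0.616 CPM are allowed by the depth.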
